A study of Mus musculus with 7 samples.

Results

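The genes Klrk1, Klrd1, Klrc1, Klrc2, Klrc3 and Klrg1 encode lectin-like receptors that were first described on natural killer cells (NKC) and are also found on CD8-positive T cells (CD8-TC). The regions described here were chosen by position alone. A called region belonged to the set when its midpoint lay in 1 of the 6 gene bodies or within 20 kb of it, in the GENCODE annotation of the mouse build NCBIM37 (mm9). This gave 2 of 4934 Runx3-bound regions and 16 of 76705 H3K4me1-marked regions, or 18 of 81639 regions in all. The 6 windows overlap and form 2 stretches of chromosome 6 that span 179 kb.

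The regions came from chromatin immunoprecipitation and sequencing (ChIP-seq) of resting splenic CD8-TC of wild-type mice of the ICR strain. Cells of 18 mice were collected, selected on anti-CD8 beads and fixed directly after isolation. The libraries fell into 3 groups. Runx3, a transcription factor of cytotoxic lymphocytes, was precipitated with an in-house polyclonal antiserum in 3 libraries of 2 repeats. Histone H3 monomethylated at lysine 4 (H3K4me1), a mark found at enhancers, was precipitated in 2 libraries, and non-immune serum (NIS) served as control in 2. Age and sex of the mice are not given in the sources used here. All groups shared strain, tissue and selection, and no genotype or treatment was compared. Each antibody gave 1 list of positions called on its joined repeats, without scores or read counts. Values below therefore have no replicate error, no depth per region is known, and no test was made. A place without a called region is one where no region was called, which does not show that Runx3 or the mark is absent. Binding in all cells and binding in a subset of the cells cannot be told apart in such lists.

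Klrk1 encodes NKG2D, an activating receptor for stress-induced relatives of MHC class I, which signals through the adaptors DAP10 and DAP12. Klrd1 encodes CD94, which forms dimers with the NKG2 chains. Klrc1 encodes the inhibitory chain NKG2A, while Klrc2 and Klrc3 encode the activating chains NKG2C and NKG2E, and the dimers bind the nonclassical molecule Qa-1. Klrg1 encodes an inhibitory receptor for cadherins that marks differentiated effector T cells. Runx proteins bind the canonical RUNX motif, often near motifs of ETS factors. The motif was searched on both strands in 4 variants. The first is TGTGGT and the next one is TGTGGC. The others are TGCGGT and, as the last variant, TGCGGC.

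Part of the sequence of each Runx3-bound region is shown first, because all Runx3 occupancy called at the 6 genes rests on them. They lay between Klrd1 and Klrk1, and are given on the plus strand of mm9 with RUNX motifs of either strand in capitals. The first stretch, chr6:129556816-129556945, belongs to the region nearer to Klrd1. The second, chr6:129558344-129558643, belongs to the region nearer to Klrk1.

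Region near Klrd1: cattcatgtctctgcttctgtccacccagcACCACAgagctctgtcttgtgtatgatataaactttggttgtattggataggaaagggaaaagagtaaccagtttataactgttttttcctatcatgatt

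Region near Klrk1: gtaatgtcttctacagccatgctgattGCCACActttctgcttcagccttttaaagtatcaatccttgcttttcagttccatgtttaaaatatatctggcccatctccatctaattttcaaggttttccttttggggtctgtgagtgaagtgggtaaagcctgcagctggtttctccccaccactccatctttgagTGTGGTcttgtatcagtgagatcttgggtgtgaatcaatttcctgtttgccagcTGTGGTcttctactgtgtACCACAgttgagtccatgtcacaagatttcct

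The region nearer to Klrd1 spanned chr6:129556429-129557613, a width of 1185 bp, and was wider than 94.7% of the Runx3 list. It held 3 RUNX motifs, TGTGGT on the minus strand at 129556846 and 2 of TGTGGC on the plus strand. Of all Runx3-bound regions 88.8% held at least 1 RUNX motif and 45.4% held 3 or more. None of the 3 motifs lay in the central 200 bp, where 65.9% of all Runx3-bound regions had one. The ETS motif was taken on both strands as AGGAAA or else as AGGAAG, with the further variants CGGAAA and, as the last one, CGGAAG. It occurred 9 times in this region. The AGGAAG matches at 129557276, 129557282, 129557288 and 129557294 follow each other without a gap as a tandem repeat, and each was counted. An ETS motif was present in 95% of all Runx3-bound regions.

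The region nearer to Klrk1 spanned chr6:129558034-129558877, 844 bp wide, close to the list median of 851 bp. It held 4 RUNX motifs, against 25.8% of all Runx3-bound regions with 4 or more, and 2 of them lay in the central 200 bp. The motifs were TGTGGC on the minus strand at 129558371 and TGTGGT at 129558540, 129558594 and 129558612, the last on the minus strand. The last pair was separated by 12 bp and faced in opposite directions. A pair of RUNX motifs at most 50 bp apart occurred in 34.3% of all Runx3-bound regions. The region held 5 ETS motifs, the closest 10 bp from a RUNX motif, and 58.6% of all Runx3-bound regions had both motifs within 50 bp. The letters GGTGTGA of T-box factors lay 20 bp from one RUNX motif and 21 bp from another. Such letters within 50 bp of a RUNX motif were found in 4.05% of all Runx3-bound regions. The AP-1 letters TGACTCA or their reverse complement were in neither region, against a share of 16.5% in the list. No RUNX motif of either region shared bases with an ETS or T-box motif, and a match is a description of sequence only.

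**Figure D1:**
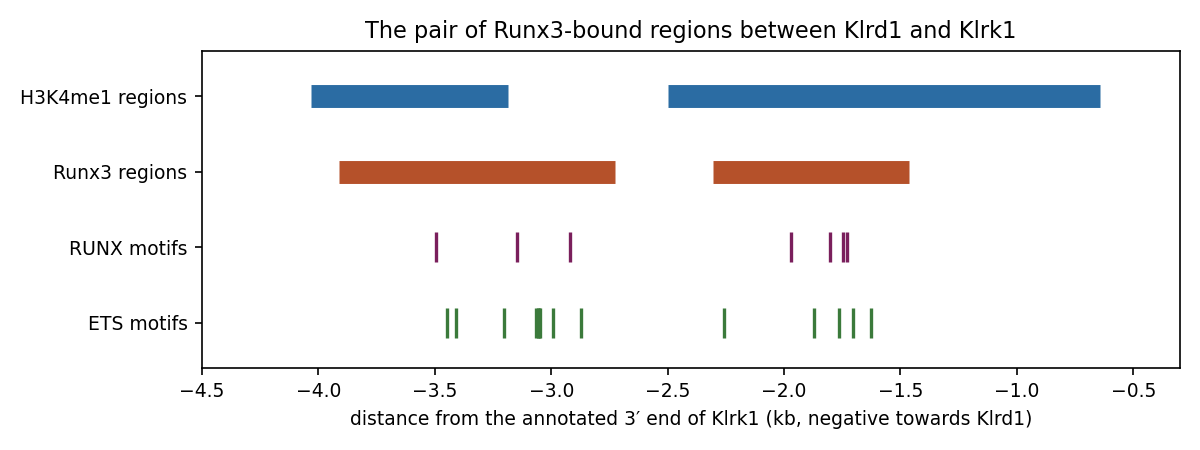
Called regions and motif positions between Klrd1 and Klrk1, by distance in kb from the annotated 3′ end of Klrk1 (negative values lie towards Klrd1). Bars are called H3K4me1-marked and Runx3-bound regions and ticks are motif starts inside the Runx3-bound regions. The 3 RUNX motifs of the left region are spread out, and 3 of the 4 of the right region lie close together.

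Together the pair held 3.45 RUNX motifs per kb, compared with 2.96 per kb over all Runx3-bound regions, 1.39 per kb over the windows of the 6 genes and 1.44 per kb in 1 kb tiles taken every 1 Mb of the genome. ETS motifs numbered 6.90 per kb in the pair and 4.01 per kb over all Runx3-bound regions. The value of the pair counts each match of the tandem repeat in the left region, and is lower when the repeat is taken as 1 site. The 16 H3K4me1-marked regions held 2.27 RUNX motifs per kb. At least 1 RUNX motif occurred in 13 of these 16, and in 81.5% of the whole H3K4me1 list.

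Runx3 was thus called near 2 of the 6 genes, Klrk1 and Klrd1, and through the same pair of regions. Of all 22350 protein-coding genes 19.8% had a Runx3-bound region by this rule, and 15.2% of genes of up to 20 kb, as these 6 are. A window with 2 or more such regions was seen in 4.67% of genes. With a margin of 50 kb in place of 20 kb, 5 of the 6 genes and 30.8% of all protein-coding genes had a Runx3-bound region, and Klrc1 was the one without. Those 5 genes rested on 3 regions. Klrc2 and Klrc3 counted the same pair as Klrk1 and Klrd1, and Klrg1 counted a separate region, so that the 5 are not separate observations. Since the counts of Klrk1 and Klrd1 come from 1 place, they are not separate observations. The place is the interval between the 3′ ends of Klrd1, which is transcribed to the right, and Klrk1, which is transcribed to the left. That interval is 11547 bp long. The left region began 7635 bp past the end of Klrd1, and the right region stopped 1463 bp short of the end of Klrk1. Their midpoints lay 15.2 and 16.7 kb downstream of the Klrd1 transcription start site (TSS), and 16.9 and 15.4 kb from the Klrk1 TSS. Counting the starts of all annotated transcripts, the nearest TSS was one of Klrd1, 10513 and 11948 bp away. Both regions were thus over 5 kb from a TSS, as were 63.9% of all Runx3-bound regions.

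The pair was closely spaced. The gap between its members was 420 bp, and 44 of 4914 neighbouring pairs on the Runx3 list (0.895%) were as close or closer. The gap falls in 1 kb bins, chr6:129556800-129557799 and chr6:129557800-129558799, where 81.2% and 86.2% of 40-base words occur once in the genome. Within the left and right region the share was 96.6% and 100%, and in genome tiles 86.6%. Reads that aligned to more than 1 place were not used, and their part in this gap was not tested. Away from the pair the next Runx3-bound region to the left was 255.8 kb distant. To the right it was 138 kb distant, at chr6:129697038-129697980, which is 7007 bp from the TSS of the related receptor gene Klri2.

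Both regions of the pair overlapped an H3K4me1-marked region, as did 78.8% of the Runx3 list. The mark covered 61.3% of the left region and 100% of the right one, and 50.6% of the list lay wholly inside the mark. The H3K4me1-marked region at the left spanned 129556309 to 129557154 and ended 133 bp past the midpoint of the Runx3-bound region. The one at the right spanned 129557841 to 129559700. Between them was a gap of 686 bp without the mark, of which 459 bp lay inside the left Runx3-bound region and 227 bp between the pair. This gap falls in the same bins as that of the pair, and the part of repeated words in it was not tested. Both plus-strand RUNX motifs of the left region lay in this gap, whereas its minus-strand motif and the 4 motifs of the right region lay under the mark.

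**Figure D2:**
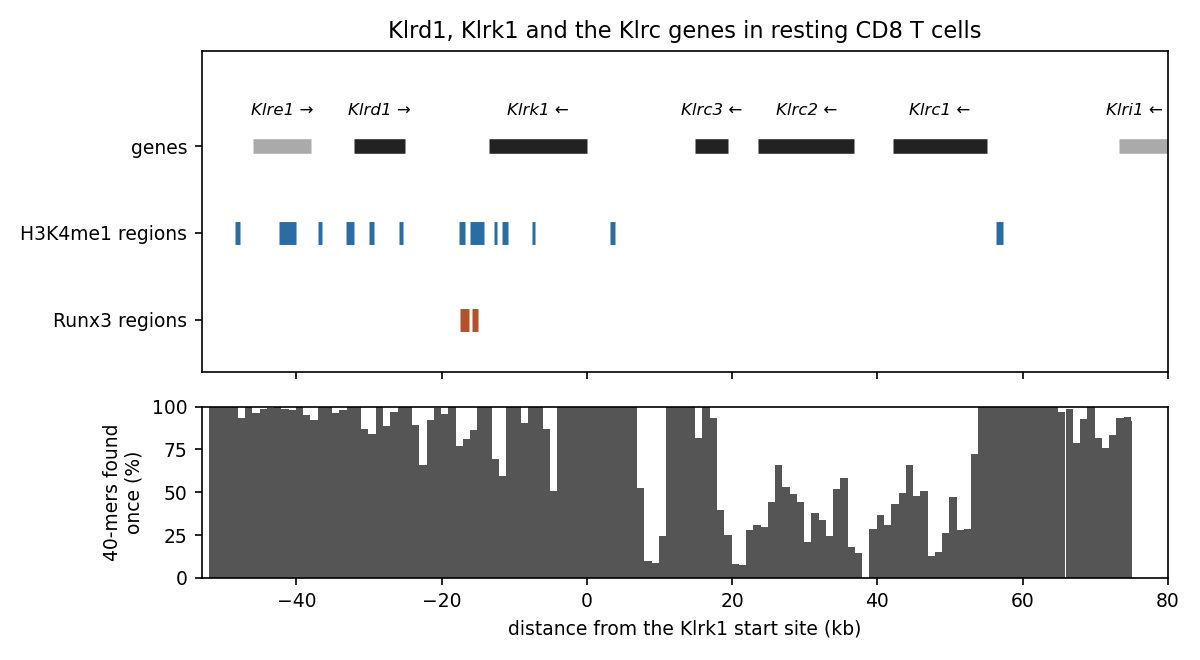
Map of Klrd1, Klrk1 and the 3 Klrc genes by distance from the Klrk1 start site in kb, with called H3K4me1-marked and Runx3-bound regions. Black bars are member genes, grey bars are neighbours and arrows give the direction of transcription, and the lower panel gives the percent of 40-base words in each 1 kb bin of the member windows that occur once in the genome. Called regions gather on the Klrd1 and Klrk1 side, and a stretch of 52.5 kb over the Klrc genes has none.

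H3K4me1-marked regions were found in the windows of 5 of the 6 genes, beside 73.6% of all protein-coding genes, and their number differed widely among the 6. Klrd1 had 11, Klrk1 had 9, Klrg1 had 3, Klrc1 and Klrc3 had 1 each, and Klrc2 had none. The median over all genes was 4. Because windows overlap, 9 of the 16 regions were counted for 2 genes. In percent of window bases, the mark covered 21.9% of the Klrd1 window and 13.7% of the Klrk1 window. It covered 8.48% for Klrg1, 1.77% for Klrc1, 1.41% for Klrc3 and 1.23% for Klrc2, whose window took in parts of marked regions with midpoints outside it. The median over all genes was 5.75%, and 86.8% of genes had less than Klrd1, 73.6% less than Klrk1, 59.9% less than Klrg1 and 30.5% less than Klrc2. Among the 742 genes with exactly 2 Runx3-bound regions the median cover was 23.8%, so that Klrd1 lay just under it and Klrk1 further below. Among the 17921 genes with none it was 3.88%, with Klrg1 above this value and the 3 Klrc genes under it. The order of the genes depended on the margin. At 5 kb Klrk1 (21.4%) was above Klrd1 (16.7%) and Klrc1 (4.07%) above Klrg1 (0%), and at 50 kb Klrc3 (7.88%) was above Klrg1 (6.18%). Only Klrd1 and Klrk1 had a marked midpoint inside the gene body, against 59.9% of all genes, which include many longer than these 6.

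**Figure D3:**
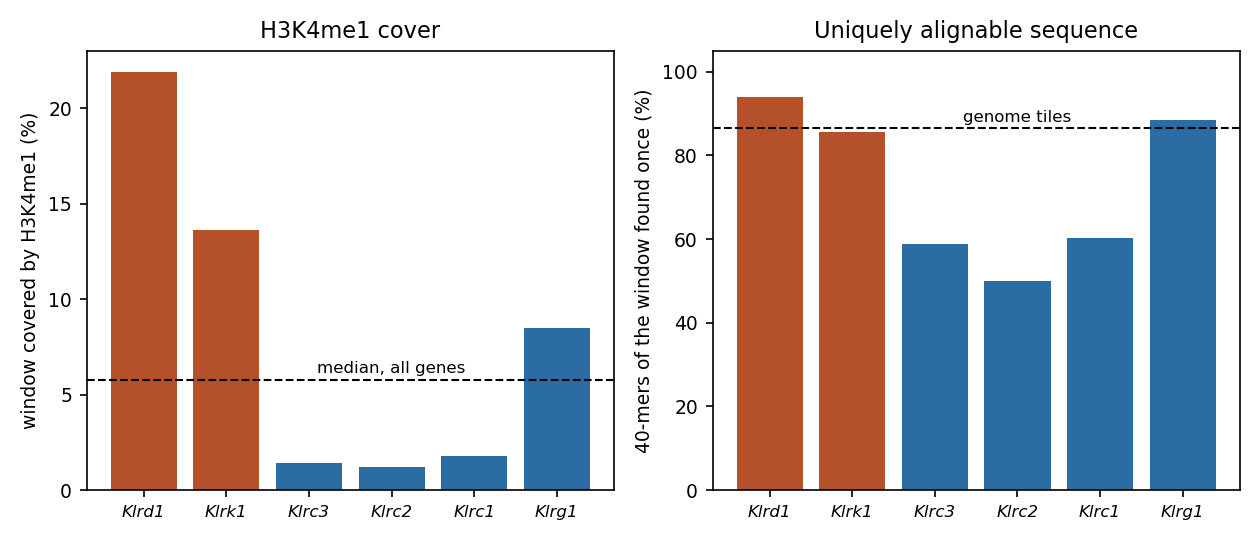
Left, percent of each gene window (gene body and 20 kb on both sides) covered by H3K4me1-marked regions, with the median of all protein-coding genes as a dashed line. Right, percent of 40-base words of each window that occur once in the genome, with the value of genome tiles as a dashed line. Orange bars are genes with Runx3-bound regions in the window and blue bars are genes without; the Klrc genes are lowest in both panels.

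Klrd1, the CD94 gene, was annotated at chr6:129541800-129548793 on the plus strand. It was the only one of the 6 whose TSS lay inside an H3K4me1-marked region, as was the case for 17.7% of protein-coding genes. This region, chr6:129540657-129541817, was 1161 bp wide and lay almost wholly upstream of the TSS. The 250 bp before the TSS held 3 RUNX motifs. Of all promoters of that length 37.5% held at least 1 RUNX motif and 1.62% held 3 or more. No Runx3-bound region was called there. The promoter is printed next because it joins the mark with the motif, and that of Klrk1 because it held 2 RUNX motifs without a called region of either list. At least 2 motifs were found in 8.74% of promoters. The Klrd1 promoter, chr6:129541550-129541799, is on the plus strand, and that of Klrk1, chr6:129573883-129574132, is on the minus strand.

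Klrd1 promoter: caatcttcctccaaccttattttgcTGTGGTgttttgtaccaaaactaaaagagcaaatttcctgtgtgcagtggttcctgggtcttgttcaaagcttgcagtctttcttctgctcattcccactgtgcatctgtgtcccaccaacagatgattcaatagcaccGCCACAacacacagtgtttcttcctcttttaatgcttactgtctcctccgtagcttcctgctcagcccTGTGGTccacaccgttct

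Klrk1 promoter: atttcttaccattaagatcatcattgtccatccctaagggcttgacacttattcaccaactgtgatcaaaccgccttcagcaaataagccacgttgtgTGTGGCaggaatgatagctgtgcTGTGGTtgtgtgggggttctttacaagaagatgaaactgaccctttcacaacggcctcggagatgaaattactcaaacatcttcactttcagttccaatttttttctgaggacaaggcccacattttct

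Further H3K4me1-marked regions of Klrd1 lay in the gene and upstream of it. A pair with widths of 606 and 503 bp had midpoints in introns, at 129544222 and 129548264. Upstream, a region of 572 bp lay 4654 bp from the TSS and held 5 RUNX motifs, 3 of them in its central 200 bp. A broad region of 2369 bp, wider than 86.5% of the list, had its midpoint in an intron of the neighbouring receptor gene Klre1, and a narrower one of 682 bp lay upstream of Klre1. None of these 5 overlapped a Runx3-bound region.

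Klrk1, the NKG2D gene, was annotated at chr6:129560341-129573882 on the minus strand. Its body held 3 marked midpoints, all in narrow regions. Those of 437 and 813 bp had their midpoints in annotated untranslated sequence, and that of 456 bp had its midpoint in an intron and also touched an exon. A region of 630 bp at chr6:129577099-129577728 lay 3532 bp upstream of the TSS and was the last one before the Klrc genes. It held no RUNX motif. The Klrk1 TSS itself was not marked. Across the set, 14 of the 16 H3K4me1-marked regions had no Runx3-bound region, and 5.49% of the whole H3K4me1 list had one. Only 4 of the 16 were wider than the list median of 979 bp.

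The genes of the NKG2 chains followed to the right, all on the minus strand: Klrc3 at chr6:129588711-129593355, Klrc2 at chr6:129597514-129610707 and Klrc1 at chr6:129616033-129628991. No Runx3-bound region lay in any of the 3 windows. Their TSSs were 34.9, 52.3 and 68.5 kb from the nearest one, compared with a median of 149 kb over all genes, and 26.3% and 31.1% of genes were nearer to Runx3 than Klrc2 and Klrc1. All 3 gene bodies lay in a stretch of 52.5 kb without the mark, chr6:129577729-129630268. Of the 76685 intervals between neighbouring H3K4me1-marked regions 8.68% were as long. This is a share of intervals, not of genes or bases. Among all protein-coding genes 73.6% had a marked region in the window, and 30.5% had less cover than Klrc2. This stretch held 67 RUNX motifs, or 1.28 per kb. The 1 region beyond it, chr6:129630269-129631203, was the only marked region of Klrc1. It was 935 bp wide, with its midpoint 1745 bp upstream of the TSS, and it held 4 RUNX motifs. Of the 3 chains, the inhibitory NKG2A gene was the one with a called marked region close to its start. In the 2 kb upstream, 100% of 40-base words occur once in the genome for Klrc1, but 9.08% for Klrc2 and 12.8% for Klrc3. The 3 genes therefore cannot be compared by called regions at their starts. The central 200 bp of the marked region of Klrc1, chr6:129630636-129630835 on the plus strand, held 1 RUNX motif.

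Marked region upstream of Klrc1, centre: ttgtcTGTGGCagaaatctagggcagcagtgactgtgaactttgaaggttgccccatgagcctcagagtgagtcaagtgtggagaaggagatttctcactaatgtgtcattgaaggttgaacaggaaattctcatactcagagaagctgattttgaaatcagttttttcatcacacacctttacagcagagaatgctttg

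Sequence is shared among the Klrc genes, and the authors kept reads of 40 to 42 bp that aligned to 1 place. The share of 40-base words that occur once in the mm9 genome was therefore computed. It was 94.04% in the Klrd1 window, 88.4% for Klrg1 and 85.6% for Klrk1, compared with 86.6% in genome tiles. For Klrc1 it was 60.3%, for Klrc3 58.8% and for Klrc2 49.97%. In the gene bodies it was 45.6%, 72.0% and 39.9%, in the same order. Within the Runx3-bound pair it was 98.0%, and within the 16 H3K4me1-marked regions 98.5%. Regions were called from reads that aligned to 1 place, so that a high share within them follows in part from the method. In the 2 kb upstream of Klrc1 100% of the words were unique, whereas upstream of Klrc2 and Klrc3 only 9.08% and 12.8% were. The same share was 100% for Klrk1, 99.03% for Klrd1 and 93.4% for Klrg1, and of these 3 only Klrd1 had a marked TSS. Inside the 52.5 kb stretch 32 of 52 bins of 1 kb had under 50% unique words, and 11 had 90% or more. The part of sequence copies in the lack of called regions was not tested. A further limit is that the mice were of the ICR strain, while the reference genome is of another strain.

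The likeness of Klrc2 and Klrc3 is shown by 120 bases upstream of each, aligned without gaps, with differing bases in capitals. Both are on the minus strand, at chr6:129610813-129610932 and chr6:129593546-129593665, and they differ at 2 positions. A read that covers no differing base matches both places.

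Klrc2 upstream: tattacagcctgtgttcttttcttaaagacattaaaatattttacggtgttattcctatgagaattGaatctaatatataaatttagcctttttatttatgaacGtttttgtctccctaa

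Klrc3 upstream: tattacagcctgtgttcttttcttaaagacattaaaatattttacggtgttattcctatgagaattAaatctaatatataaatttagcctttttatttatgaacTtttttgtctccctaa

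Over 2 kb upstream, Klrc2 and Klrc3 were identical at 1910 of 1915 aligned bases (99.7%). Klrc1 and Klrc2 were identical at 67.2% of aligned bases. Part of the marked region upstream of Klrc1 had a copy of 258 aligned bases upstream of Klrc3, with 81.8% identity, and one upstream of Klrc2 with 81.4%. Neither copy overlapped a called region.

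Klrg1 lies apart from the others, at chr6:122220614-122232900 on the minus strand. Its window held no Runx3-bound region and 3 H3K4me1-marked regions, all upstream of the TSS. The nearest, chr6:122241129-122244452, was the widest of the 16 at 3324 bp, wider than 93.1% of the list, and its midpoint lay 9891 bp from the TSS. It held 6 RUNX motifs and 14 ETS motifs. The others were 477 and 633 bp wide and lay farther upstream. The gene body was part of a stretch of 948 kb without the mark, chr6:121293399-122241128, which holds 5 protein-coding genes. Of all intervals between marked regions 0.554% were as long, again a share of intervals and not of genes or bases. Unique 40-base words made up 71.7% of that stretch and 91.0% of the Klrg1 body.

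The Runx3-bound region nearest to Klrg1 was just outside the rule. It spanned chr6:122258377-122259400, 26.0 kb upstream of the Klrg1 TSS and 5.99 kb beyond the window, and lay 151 bp from the TSS of M6pr, the gene of a mannose 6-phosphate receptor. It held 2 RUNX motifs and overlapped 1 H3K4me1-marked region. Among the 6 genes in order of TSS distance to Runx3, Klrd1 and Klrk1 came first at 15.2 and 15.4 kb, followed by Klrg1 at 26.0 kb and Klrc3, Klrc2 and Klrc1.

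**Figure D4:**
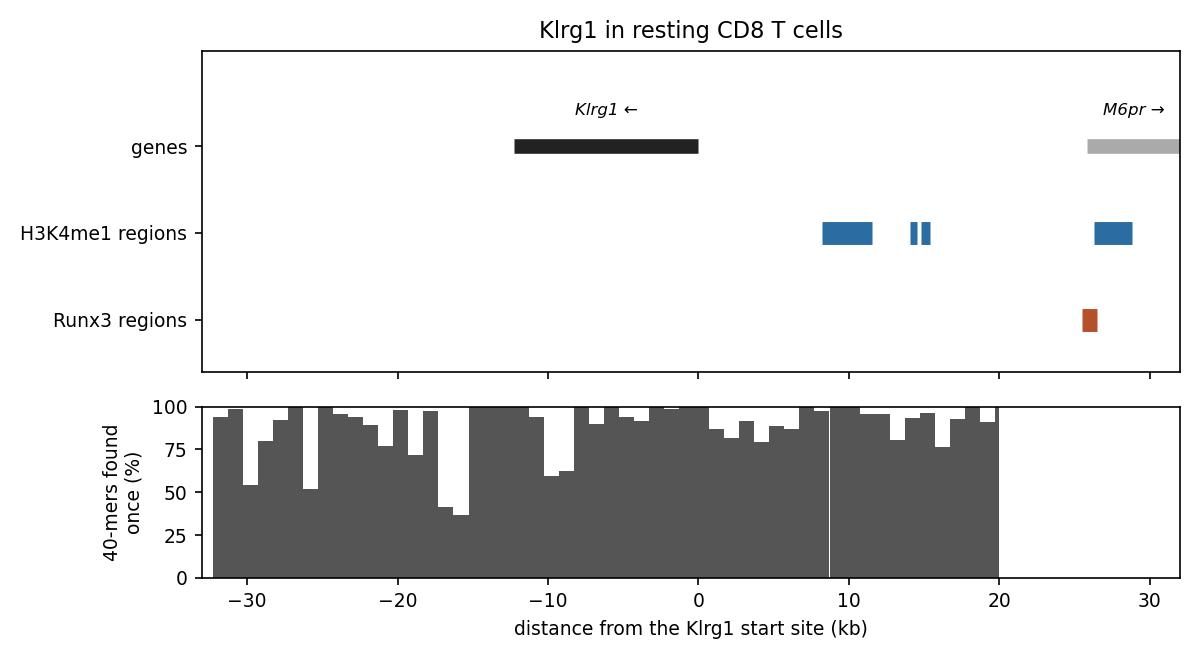
Map of Klrg1 by distance from its start site in kb, with called H3K4me1-marked and Runx3-bound regions and the percent of 40-base words that occur once, which was computed for the window of 20 kb around the gene only. The gene (black) is without either kind of region, 3 H3K4me1-marked regions lie upstream within the window, and the Runx3-bound region lies beyond it at M6pr (grey) with a further H3K4me1-marked region.

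The other lectin receptor genes of the NKC gene complex were counted by the same rule. Of 28 genes, 7 had a Runx3-bound region and 23 an H3K4me1-marked region, beside 19.8% and 73.6% of all protein-coding genes, which are also the shares to set beside the gene lists that follow. The 28 had a median H3K4me1 cover of 2.99% of the window. Cd69, an early activation antigen, had 3 Runx3-bound regions and 24.8% cover. Klrb1b, an inhibitory receptor of the NKR-P1 family, had 2 and 27.5%, and the inhibitory myeloid receptor Clec12a had 2 and 13.2%. Klri2 had 1 and 3.997%, and the Ly49 family members Klra4, Klra5 and Klra17 had 1 each with 1.61 to 2.64% cover. Klra5 and Klra17 counted the same region, chr6:129833004-129833932, so that they are not separate observations. Klrk1 and Klrd1 thus had as many Runx3-bound regions as Klrb1b and Clec12a and fewer than Cd69. Over all protein-coding genes with 2 Runx3-bound regions, the most like in H3K4me1 cover were B4galnt3 (13.7%) and Prrc2c (13.6%) for Klrk1, and Ms4a8a (21.9%) and Whsc1l1 (22.0%) for Klrd1, chosen from 740 genes by the smallest difference.

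Genes that work with the 6 receptors were counted likewise. Of 4 adaptors, Fcer1g had 1 Runx3-bound region and Cd247, the CD3 zeta chain, had 2. Hcst and Tyrobp, which encode DAP10 and DAP12, had none, with 44.0% and 47.7% H3K4me1 cover. These neighbouring genes have overlapping windows, so that their values are not separate observations. Of 8 annotated ligand genes, H60b, a ligand of NKG2D, and Cdh1, the E-cadherin bound by Klrg1, had 1 Runx3-bound region each. H2-T23, which encodes Qa-1, had none and 45.2% cover. Raet1a, Raet1b, Raet1e and Ulbp1 were not matched to the annotation. Of 14 annotated signalling genes, 11 had a Runx3-bound region, beside 19.8% of all protein-coding genes, and all 14 had the mark, beside 73.6%. Lck, the kinase of the T cell receptor, had 3, while Fyn, Pik3cd and the phosphatase gene Inpp5d had 2. Zap70, Vav1, Grb2, Plcg1, Plcg2, Pik3r1 and Ptpn6 had 1 each. Syk was not matched. Windows of these lists differ in length, and no share was compared between lists.

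The labelled cell type was checked with marker genes. All 6 CD8-TC markers had Runx3-bound and H3K4me1-marked regions, with 29.4 to 50.4% cover. Cd8b1 had 5 Runx3-bound regions, Cd3e, Cd3g and Lck had 3 each, and Cd8a and Cd3d had 2 each. The windows of the Cd3 genes overlap and share regions, so that their counts are not separate observations. Ncr1, a receptor gene of NKC, had no region of either list, whereas the other 4 NKC markers had the mark, with cover of 23.5% at Klrb1c, 23.002% at Nkg7, 14.2% at Itga2 and 13.7% at Eomes. Nkg7 and Itga2 also had Runx3-bound regions. Of the B cell markers Ms4a1, Cd79a, Pax5 and Ebf1, Cd79a had 2 Runx3-bound regions and Pax5 had 1, with H3K4me1 cover of 18.0 to 41.2% over these 4 genes. Of myeloid and dendritic markers 2 of 5 (Itgax and Itgam) had a Runx3-bound region, with cover of 0 to 31.2% over the 5 genes, and the region of Itgam was also counted for Itgax. Whether other splenic cells had a part in the regions of the 6 receptor genes was not tested.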

How the data were processed

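ChIP-seq of resting splenic CD8-TC was described from the 2 lists of positions that the authors deposited. Per the labels, reads of 40 to 42 bp from fragments of about 300 bp were aligned to mm9 with ELAND. The submitters' processing notes name CASAVA 1.6 and 1.7. The authors kept uniquely aligned reads, joined the repeats of each antibody and called regions with MACS against joined NIS. The lists hold positions and names only, and the depth behind a single region is not known here.

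Positions were given from 1 and used with NCBIM37 and its GENCODE annotation. Overlap meant at least 1 bp, and the TSS was the outer end of the gene unless stated otherwise. A background share over 22350 protein-coding genes, or over the whole list, is given for the 6 genes and their regions and, for the other gene lists, once at their first count. Members, gene lists and motifs were chosen with earlier results of these data known. All 6 receptor genes were named, as were list genes with a Runx3-bound region, genes absent from the annotation, and the 2 genes most like each bound member in H3K4me1 cover. A few unbound genes (Hcst, Tyrobp, H2-T23, Ncr1, Klrb1c, Eomes, Ms4a1, Ebf1) were named after their values were seen. Scripts were tested on simulated data. Python 3.11.15, pysam 0.24.0, numba 0.67.0, Biopython 1.88 and blastn 2.17.0 (alignments of at least 200 bp) were used. Alternatives were other margins, overlap rules, width limits, motif windows and word lengths. A marker gene and a stretch of sequence are not reported here. No paired or leave-one-out analysis could be made on joined calls.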

Additional observations from a re-analysis of the deposited data

How the results depend on the processing

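Of 62 alternative values for 20 results, 38 kept their value by the rule used (counts within 1.5 times) and 24 moved. With the regions at or above the median width of their list, 1 Runx3-bound and 4 H3K4me1-marked regions remained of 2 and 16, and 1 Runx3-bound region overlapped an H3K4me1-marked region of such width. In the 200 bp around the midpoint 1 of the 2 Runx3-bound regions held a RUNX motif. With a margin of 5 kb 1 of the genes had a Runx3-bound region, Klrk1, and with 50 kb 5 had one, all but Klrc1, through 3 regions. The median H3K4me1 cover of the 6 windows was 5.12%, and it was 2.04% at a margin of 5 kb and 0 over gene bodies alone. The other moves were in the cover of single genes, and some changed their order. At a margin of 5 kb Klrk1 passed Klrd1 and Klrc1 passed Klrg1. At 50 kb Klrc3 rose from 1.41 to 7.88% and passed Klrg1, and Klrc2 rose from 1.23 to 5.72%. Words of 42 bases and named chromosomes only, both chosen after seeing the data, changed no order of unique words among the 6 windows. No paired analysis was possible because the regions were called on joined repeats and neither repeat could be omitted. Alternatives on depth were not possible without read counts.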
